A study of Mus musculus with 5 samples.

Results

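The genes described here encode the factors that start and extend protein chains on cytosolic ribosomes. They were taken from the deposited expression table as every gene whose symbol begins with Eif and a digit from 1 to 6, or with Eef and 1 or 2. That pattern matched 66 of 19699 genes. The Y-linked gene Eif2s3y and the pseudogene Eif4a-ps4 were dropped, which left 64 members. A minimum of 1 FPKM in at least 2 libraries was met by 62 of them, all protein coding. The others were Eif5al3-ps, an annotated processed pseudogene, and Eif2c5, annotated as a long noncoding RNA, and both were matched by symbol alone. Eif5al3-ps was listed at 0 and 0 FPKM in mutants and at 0.239, 0.274 and 0 FPKM in controls. Eif2c5 had 0.359 and 0.271 FPKM in mutants, against 0.113, 0.346 and 0.0775 FPKM in controls.

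The study asked what happens to gene expression in the embryonic mouse airway when the arginine methyltransferase Prmt5 is lost from the lung epithelium. Main airway tissue with trachea and lung was taken at E13.5, in mid-gestation, and RNA was sequenced from 2 mutant and 3 control libraries. The mutants are named Shh and Prmt5 in the series' design, and their genotype label reads Prmt5 knockdown, whereas the design and growth notes speak of a knockout in epithelial cells. Controls are wild-type littermates, and C57 is the strain given for the pregnant mice. A Cre allele is not written out in the labels. As background, Shh-driven Cre acts in the airway epithelium and leaves mesenchyme, vessels and blood cells untouched, so a bulk piece of tissue holds both kinds of cells. The labels do not say whether a library is 1 embryo or several. P-values here rest on library-to-library spread alone, and that spread may be technical. A treatment note about adipocyte culture goes with none of the tissue samples and was not used.

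Initiation begins when eIF2, carrying the initiator tRNA, joins the small ribosomal subunit together with eIF1, eIF1A, eIF3 and eIF5. The cap-binding complex eIF4F, made of eIF4E, the scaffold eIF4G and the helicase eIF4A, recruits this assembly to an mRNA, which is then scanned for a start codon. Stress kinases phosphorylate the alpha subunit of eIF2 and so slow its recharging by eIF2B, while 4E-BP proteins hold eIF4E away from eIF4G. In elongation, eEF1A brings aminoacyl-tRNA to the ribosome and eEF2 moves the ribosome along. Every cell that makes protein needs these factors.

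The values were FPKM, fragments per kilobase of gene scaled by sequencing depth, as the authors deposited them. Sequencing depth, read back from the smallest steps of the FPKM values, was 15756526 and 15652503 reads in mutants and 18682463, 16305922 and 18219269 reads in controls. A single RNA, Gm23935, took 30.1% and 64.8% of the summed FPKM in mutants and 7.69%, 51.3% and 22.6% in controls. Prmt5 itself had 23.7 and 20.1 FPKM in mutants, against 28.7, 26.4 and 25.8 FPKM in controls (log2 change -0.29, SE 0.12, adjusted p = 0.234 by limma). Both mutant values lay below all controls, and this change did not pass the test. Xist, transcribed from the inactive X chromosome of females, had 0.0673 and 0.289 FPKM in mutants and 57.3, 58.1 and 115 FPKM in controls. The Y-linked gene Ddx3y had 11.96 and 10.8 FPKM in mutants, against 9.91, 6.70 and 2.54 FPKM in controls. Each control thus held Xist together with Y-linked RNA, while mutants held almost no Xist. Sex and genotype therefore cannot be fully told apart for any gene here, X-linked or autosomal. Summed levels of 10 pan-epithelial markers were 251 and 254 FPKM in mutants, against 649, 343 and 249 FPKM in controls. Their log2 changes lay between -1.12 and 0.06, with a median of -0.70. By limma 0 of the 10 were called and 4 had an unadjusted p under 0.05, as did 18.9% of all tested genes. Skeletal muscle markers summed to 12.4 and 37.4 FPKM in mutants and to 234, 173 and 206 FPKM in controls, and 9 of their 10 tested genes were lower in mutants at an adjusted p under 0.05. Lung mesenchyme markers, 8 in all, summed to 1368 and 1130 FPKM in mutants, against 1487, 1430 and 1770 FPKM in controls. Their log2 changes went both ways, between -0.70 and 1.45, and 2 of the 8, Tbx4 and Wnt2, were called higher in mutants. In bulk tissue, fewer cells of a type and less RNA per cell cannot be told apart.

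None of the 62 tested translation factor genes was called at an adjusted p under 0.05 by limma on log2(FPKM + 1), where 2.36% of all 12838 tested genes were called, 0.989% as higher and 1.37% as lower in mutants. At an unadjusted p under 0.05, 8 of the 62 passed, or 12.9%, against 18.9% of all genes. The 4 with higher mutant values were Eif3e, Eef1e1, Eif3m and Eef1b2, and 6.53% of all genes passed on that side. The 4 with lower mutant values were Eif5, Eif3j1, Eif2s3x and Eif2ak3, and 12.3% of all genes passed there. The voom method on reads recovered from the FPKM values called 0 members and put 7 under an unadjusted p of 0.05, where it called 4.7% of all genes and put 19.7% under that limit. Both mutants lay above all controls for 11 members and below all controls for 9, which together make 32.3% of the 62. Over all tested genes the same share was 37.6%, with 13.2% above and 24.4% below. Taking both directions together, the members stood apart at no more than the background rate. More members lay above than below, whereas over all genes more lay below.

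Most changes were small in both directions. Log2 changes ran between -0.42 for Eif4ebp3 and 0.43 for Eif3j2, with a median of 0.01, beside a median of -0.06 over all tested genes. Both ends of that range rested on the settings or on 1 library. Eif4ebp3 had a log2 change of -0.74 with a pseudocount of 0.1 and -0.78 with voom. Leaving out mutant replicate 1 gave 1.22 for Eif3j2, leaving out mutant replicate 2 gave -0.36, and leaving out control replicate 2 gave 0.03. Positive values were found for 33 members and negative ones for 29. The median size of a change, whatever its sign, was 0.12 on the log2 scale for members and 0.16 for all genes. The 95% interval of the change stayed within 2-fold in either direction for 60 members, or 96.8%, and for 87.6% of all tested genes. Eif3j2 and Eef1a2 were the exceptions. Within 1.5-fold, the interval held for 49 members. Members were also more abundant than most genes, with a median level of 38.1 FPKM against 8.08 FPKM for all tested genes, and their median coefficient of variation among controls was 8.39% against 11.3%. The part of abundance in the narrower intervals was not tested.

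**Figure D1:**
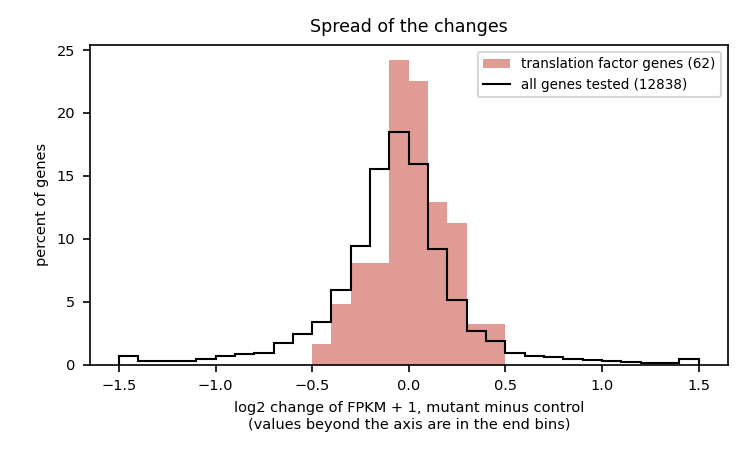
Distribution of log2 changes of FPKM + 1, mutant minus control, as a percent of genes per bin of 0.1. The 62 translation factor genes (filled) centre near 0, with a median of 0.01, and the 12838 tested genes (line) have a median of -0.06 and longer tails.

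**Figure D2:**
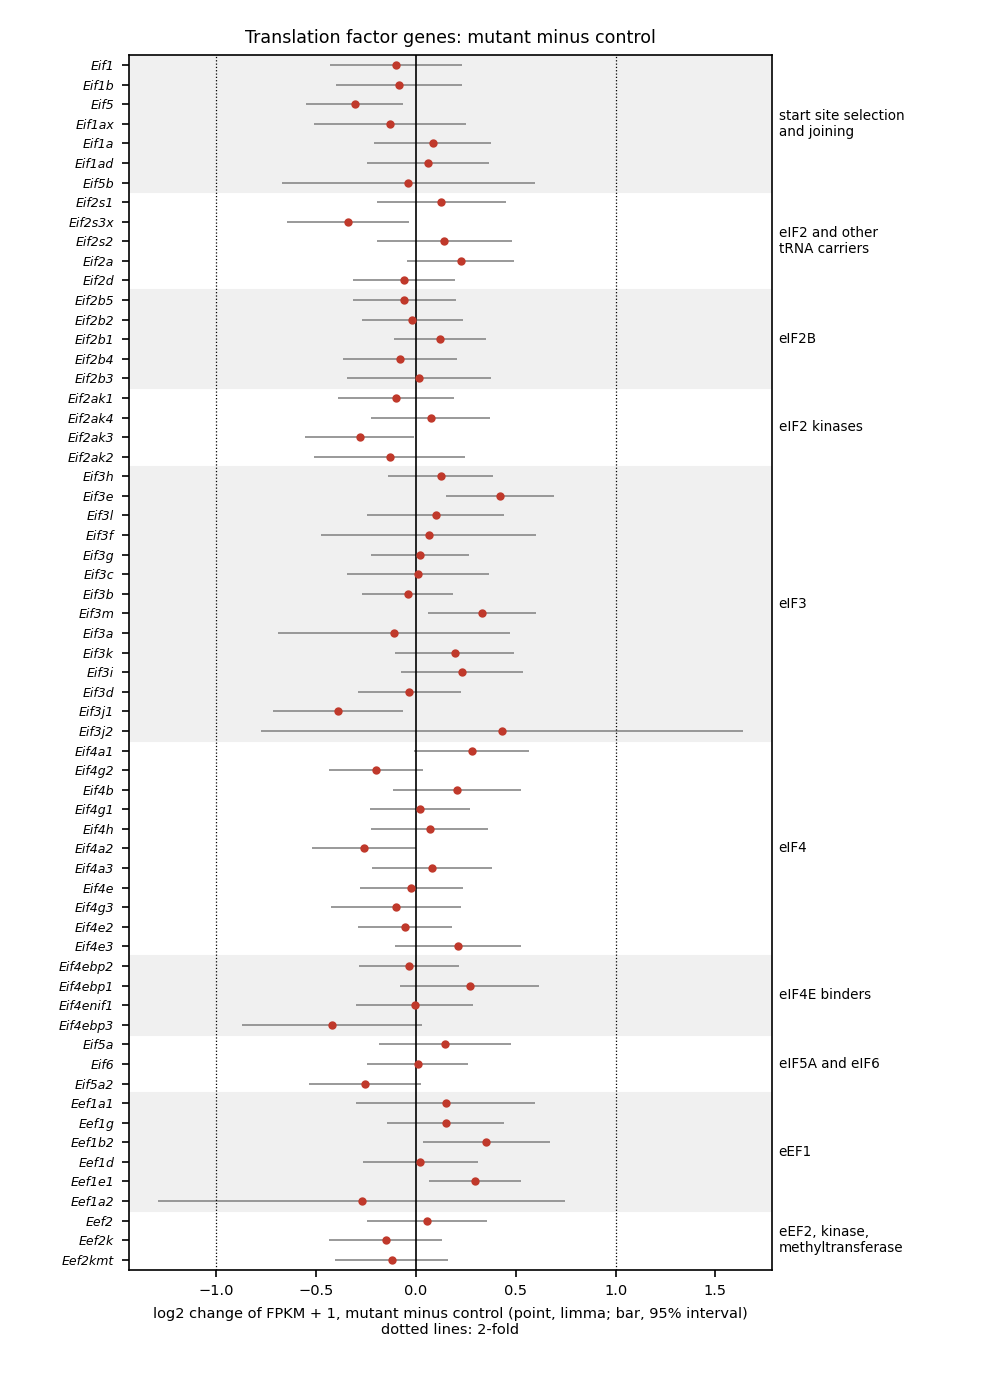
Log2 change of FPKM + 1, mutant minus control, for each of the 62 tested genes by role, with points for the limma estimate and bars for its 95% interval. The dotted lines mark 2-fold changes, and the bars of 60 genes lie between them, Eif3j2 and Eef1a2 being the exceptions.

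Levels of the factors spanned more than 3 orders of magnitude on the FPKM scale, which is corrected for gene length. Eef1a1, which delivers aminoacyl-tRNA to the ribosome, was the most abundant, with a mean of 4600 FPKM over the 5 libraries. Eef2, the translocation factor, followed with 942 FPKM and Eef1g, a subunit of the exchange factor that recharges eEF1A, with 454 FPKM. Eif3h and Eif3e, subunits of the eIF3 scaffold, had means of 314 and 312 FPKM, and their values overlapped across libraries. Eif5a, the hypusine-carrying factor, had 274 FPKM. At the other end stood Eif4ebp3, a low-abundance 4E-BP, with 1.18 FPKM, and Eif2b3, an eIF2B subunit, with 3.58 FPKM.

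**Figure D3:**
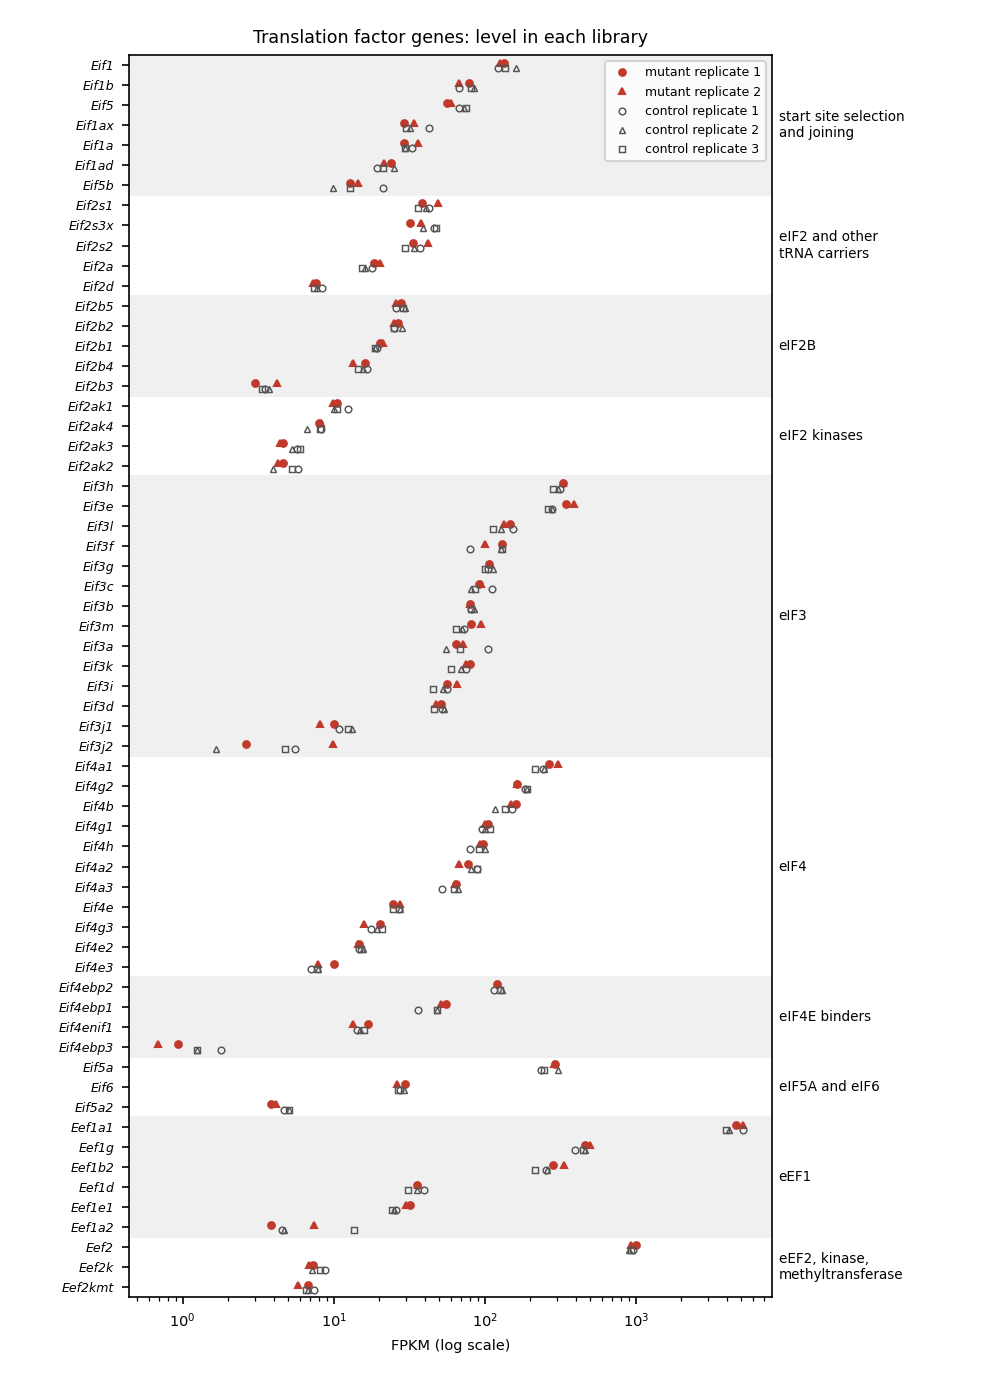
FPKM on a log scale for the 62 tested translation factor genes in each of the 2 mutant and 3 control libraries, grouped by role and ordered by mean level within a role. Mutant points (filled) and control points (open) lie close together for most genes, while Eif3j2, Eef1a2 and Eif4ebp3 are spread most widely.

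Together the 64 members summed to 10195 and 10718 FPKM in mutants, against 10344, 9488 and 9093 FPKM in controls, and the groups overlapped (exact permutation test, two-sided, p = 0.3). Eef1a1 made up 45.5% and 47.7% of that sum in mutants and 49.3%, 43.9% and 43.8% in controls. Without Eef1a1 the sum was 5558 and 5600 FPKM in mutants and 5242, 5322 and 5113 FPKM in controls, so that both mutants stood above every control. The ratio of the means was 1.07, and the exact permutation p of 0.1 is the smallest that 2 against 3 libraries allow. Rescaling the libraries kept the mutants above the controls, with a ratio of 1.13 after median ratio scaling and 1.02 after equalising the summed FPKM without Gm23935. The sum was not computed after quantile normalization, which gave log2 changes of -0.24 for Eef2 and -0.08 for Eef1g.

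Start site selection and subunit joining are the work of eIF1, eIF1A, eIF5 and eIF5B. Eif5, the GTPase-activating protein that triggers GTP hydrolysis by eIF2, had 56.6 and 59.5 FPKM in mutants, against 67.5, 73.1 and 75.3 FPKM in controls (log2 change -0.30, SE 0.10, adjusted p = 0.173). Both mutants lay below all controls, the only such case among the 7 genes of this group. Eif1ax, the X-linked gene for eIF1A, had 29.3 and 33.8 FPKM in mutants and 42.5, 31.9 and 30.2 FPKM in controls. Its autosomal relative Eif1a had 29.3 and 36.2 FPKM in mutants, against 32.9, 29.6 and 29.5 FPKM in controls, and the groups overlapped for both. The group's median log2 change was -0.08, with 2 positive and 5 negative values. Median ratio scaling turned that median to 0.00, with 4 positive values.

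The eIF2 subunits showed no shared direction. Eif2s1, the alpha subunit that the stress kinases phosphorylate, had 38.4 and 49.1 FPKM in mutants and 42.5, 40.7 and 36.0 FPKM in controls (log2 change 0.13, adjusted p = 0.679). Eif2s3x, the X-linked gene of the gamma subunit, which binds GTP and the initiator tRNA, had 31.9 and 37.8 FPKM in mutants, against 46.3, 39.1 and 47.5 FPKM in controls. Its change of -0.34 (SE 0.13, adjusted p = 0.221) was among the 8 smallest p-values of the members. Eif2a, a separate tRNA-delivering factor and not a subunit of eIF2, had 18.6 and 20.2 FPKM in mutants, against 18.01, 16.2 and 15.3 FPKM in controls, with both mutants above all controls (log2 change 0.22, adjusted p = 0.343).

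Eif2s3x has a partner on the Y chromosome, Eif2s3y, which encodes nearly the same protein. A 60-base stretch of each coding sequence, centred near the longest identical run, sets the 2 genes side by side, at bases 1324 to 1383 of the GENCODE M21 transcripts on GRCm38. Capitals mark the bases that differ. The genes lie at chrX:94188707-94212862 on the minus strand and chrY:1010543-1028847 on the plus strand.
Eif2s3x: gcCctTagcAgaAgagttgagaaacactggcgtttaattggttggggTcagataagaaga
Eif2s3y: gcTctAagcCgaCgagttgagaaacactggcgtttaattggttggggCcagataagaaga
Over the whole coding sequence 86.3% of aligned bases were identical, and the longest identical run was 34 bases. Eif2s3y had 12.5 and 10.1 FPKM in mutants, against 8.07, 8.50 and 0.910 FPKM in controls. The sum of the 2 genes was 44.5 and 47.9 FPKM in mutants and 54.4, 47.6 and 48.4 FPKM in controls, and here the groups overlapped (exact permutation p = 0.5). Eif2s3x is known in mouse to be expressed from both X chromosomes of females, and the groups differed in Xist as given above. For Eif2s3x, sex and genotype cannot be told apart. With the Y-linked level as a covariate its log2 change was -0.27 (adjusted p = 0.639), within a range of -0.45 to -0.22 over all alternatives.

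**Figure D4:**
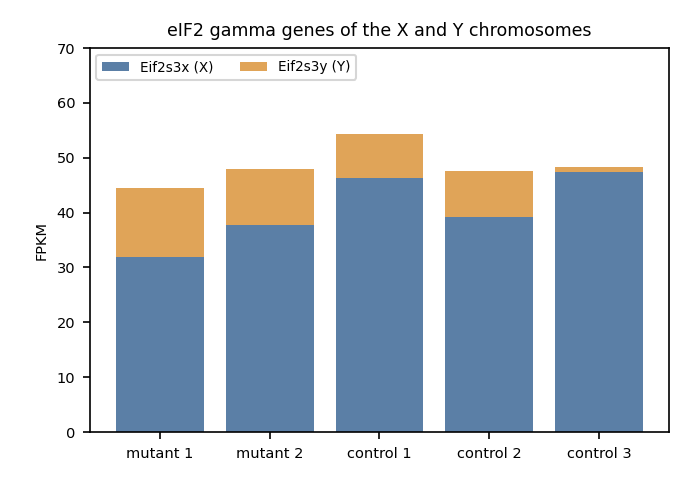
FPKM of Eif2s3x, on the X chromosome, and Eif2s3y, on the Y chromosome, stacked for each library. The stacked totals are 44.5 and 47.9 FPKM in mutants, against 54.4, 47.6 and 48.4 FPKM in controls, and control 3 holds 0.910 FPKM of Eif2s3y.

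The 5 subunits of eIF2B, the factor that reloads eIF2 with GTP, had log2 changes between -0.08 for Eif2b4 and 0.12 for Eif2b1. Eif2b1 had 20.3 and 21.1 FPKM in mutants, against 19.3, 18.8 and 18.9 FPKM in controls, and no control reached the mutant values (adjusted p = 0.566). Of the 4 eIF2 kinases, Eif2ak3, the endoplasmic reticulum stress kinase PERK, had 4.59 and 4.39 FPKM in mutants and 5.73, 5.31 and 5.98 FPKM in controls (log2 change -0.28, SE 0.12, adjusted p = 0.252). The groups did not overlap for it. They overlapped for the heme-sensing Eif2ak1, for Eif2ak2, which binds double-stranded RNA, and for Eif2ak4, which senses uncharged tRNA, with log2 changes of -0.10, -0.13 and 0.07.

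The eIF3 complex, the scaffold on the small subunit, holds the member with the smallest p-value. Eif3e had 345 and 391 FPKM in mutants, against 279, 280 and 264 FPKM in controls (log2 change 0.42, SE 0.12, adjusted p = 0.11). Its adjusted p ranged over the alternatives between 0.0795 with voom and 0.563 without mutant replicate 2. Eif3m, another subunit, had 81.1 and 94.0 FPKM in mutants, against 72.6, 70.9 and 64.3 FPKM in controls (log2 change 0.33, SE 0.12, adjusted p = 0.183). Among the 14 genes of the complex, 10 had positive changes and 4 negative ones, with a median of 0.08. Both mutants stood above all controls for 4 of them and below for 2, together 42.9%, against 37.6% of all tested genes. The summed level of the 14 was 1577 and 1611 FPKM in mutants and 1505, 1439 and 1361 FPKM in controls, a ratio of 1.11 with an exact permutation p of 0.2. After equalising the summed FPKM without Gm23935 the ratio was 1.06, and 7 of the 14 changes were positive. As deposited, the mean of the sum was 1594 FPKM in mutants and 1435 FPKM in controls. Eif3e alone had means of 368 and 274 FPKM, so much of that difference lay in 1 gene. The sum without Eif3e was not computed.

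Eif3j1 and Eif3j2 encode the loosely bound eIF3j subunit and are nearly identical copies, with 99.7% of aligned coding bases the same and an identical run of 784 bases. Reads cannot be assigned between such copies with certainty. Eif3j1 had 10.1 and 8.10 FPKM in mutants, against 10.8, 13.3 and 12.5 FPKM in controls (log2 change -0.39, SE 0.14, adjusted p = 0.193). Eif3j2 had 2.61 and 9.86 FPKM in mutants and 5.51, 1.68 and 4.75 FPKM in controls, and its 95% interval ran between -0.78 and 1.64. Mutant replicate 2 had the lowest Eif3j1 and the highest Eif3j2 value, and control replicate 2 the highest Eif3j1 and the lowest Eif3j2 value. Summed over both copies, and scaled to library size, their reads came to 65.2 and 70.7 RPM in mutants, against 76.0, 81.5 and 84.2 RPM in controls. All controls exceeded both mutants (ratio 0.843, exact permutation p = 0.1, the smallest this design gives). Eif3j1 also shares 1107 exon bases with Spg11 on the opposite strand, and the strandedness of the counting is not given in the sources used here.

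A few members had 1 control library far from the others. Control replicate 1 had 106 FPKM of Eif3a, the large core subunit, against 55.1 and 68.1 FPKM in the other controls, with 64.3 and 72.3 FPKM in mutants. It had 21.2 FPKM of Eif5b, the subunit-joining GTPase, where the other controls had 9.94 and 12.7 FPKM and mutants 12.8 and 14.4 FPKM. For Eif3f, an eIF3 subunit, the order turned round, with 130 and 101 FPKM in mutants and 79.3, 127 and 130 FPKM in controls. Over all 64 members control replicate 1 was highest of the 5 libraries for 14 and lowest for 14, and mutant replicate 2 was highest for 16 and lowest for 15. Without control replicate 1, the log2 changes of Eif3a, Eif5b and Eif3f were 0.15, 0.25 and -0.16, with adjusted p-values of 0.631, 0.448 and 0.62 by limma. Control replicate 1 also had the highest epithelial marker sum, 649 FPKM, and the part of epithelium in these values was not tested. Eif5b shares 1643 exon bases with Rev1, Eif2ak1 487 with Aimp2 and Eif2b4 204 with Snx17, each on the opposite strand, so their values carry the same limit as Eif3j1.

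A run of pyrimidines at the very start of an mRNA is known to mark messages whose translation follows mTOR signalling, many translation factors among them. Promoter windows from RefSeq (GRCm38.p6) were available for 50 members, and 14 were not matched. The search looked for C at the annotated start followed by 4 bases that are each C or T, on the gene's own strand. It matched 3 of the 50 members, or 6%, and 3.01% of all 27025 genes in the table. The matches were the factor genes Eif3f and Eif2s3x and the long noncoding RNA Eif2c5. Eif3f and Eif2s3x are shown since their levels are given above, as 15 bases before the start and 15 from it, with the pyrimidine run in capitals, at chr7:108934400-108934429 on the plus strand and chrX:94212637-94212666 on the minus strand.
Eif3f: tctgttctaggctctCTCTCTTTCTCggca
Eif2s3x: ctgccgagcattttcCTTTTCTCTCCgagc
A match describes these letters at these annotated starts and nothing about their use in the airway. The search read only from the annotated base, so a run at a start a few bases away was missed. Eef1a1 and Eef2 were among the genes without a match, and the share does not count the factors that carry such a run.

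The cap-binding complex held 2 helicase genes whose changes had opposite signs. Eif4a1, the main helicase that unwinds mRNA leaders, had 267 and 304 FPKM in mutants, against 242, 248 and 216 FPKM in controls (log2 change 0.28, SE 0.12, adjusted p = 0.277). Eif4a2, its close relative, had 77.1 and 67.4 FPKM in mutants and 88.9, 81.4 and 89.4 FPKM in controls (log2 change -0.26, SE 0.11, adjusted p = 0.269). Neither passed the test, and the groups overlapped for neither. A 60-base stretch around their longest identical run shows how their coding sequences compare, from bases 188 to 247 of the Eif4a1 coding sequence and 194 to 253 of that of Eif4a2. Capitals mark the differing bases. Eif4a1 lies at chr11:69666936-69672423 on the minus strand and Eif4a2 at chr16:23107444-23114136 on the plus strand.
Eif4a1: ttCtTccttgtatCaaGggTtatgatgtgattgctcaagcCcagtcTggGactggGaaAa
Eif4a2: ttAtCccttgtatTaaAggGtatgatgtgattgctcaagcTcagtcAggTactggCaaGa
Their coding sequences agree at 78.1% of aligned bases and share no identical run over 20 bases.

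The ratio of Eif4a1 to Eif4a2 within a library is not altered by multiplying all its values by 1 factor. It was 3.47 and 4.52 in mutants, against 2.72, 3.04 and 2.42 in controls, so that both mutants stood above all controls (mean log2 difference 0.54, exact permutation p = 0.1). Over 9 pairs of related factor genes the adjusted value was 0.36, and the design could not have given a raw p under 0.1. The Eif4ebp1 to Eif4ebp2 ratio was 0.458 and 0.419 in mutants and 0.314, 0.370 and 0.380 in controls (exact permutation p = 0.1, adjusted 0.36). For Eif5a over Eif5a2 the ratios were 76.0 and 69.1 in mutants, against 49.9, 60.2 and 49.0 in controls (exact permutation p = 0.2). The ratio of Eif1ax to Eif1a lay lower in both mutants, at 1.00 and 0.934, against 1.29, 1.08 and 1.02 in controls. As Eif1ax is X-linked, sex and genotype cannot be told apart for this ratio. The groups overlapped for the other 5 pairs. Among single genes, 37.6% of all those tested separated the groups. The share over ratios of gene pairs was not computed.

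**Figure D5:**
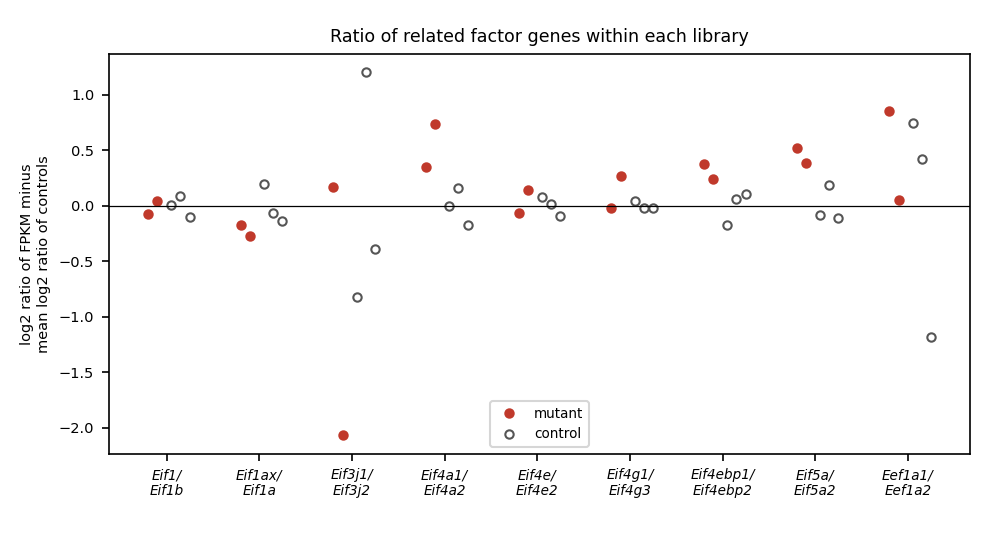
Log2 ratio of FPKM of 9 pairs of related factor genes in each library, minus the mean of the controls. Both mutants (filled) lie above all controls (open) for Eif4a1/Eif4a2, Eif4ebp1/Eif4ebp2 and Eif5a/Eif5a2 and below them for Eif1ax/Eif1a.

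Among the other cap-binding genes and their binders, Eif4g2, Eif4ebp1 and Eif4ebp3 separated the groups, without passing the test. The groups overlapped for all the rest, Eif4e and Eif4ebp2 among them. Of the 11 eIF4 genes, with Eif4a1 and Eif4a2, 27.3% separated the groups, and of the 4 eIF4E binders 50%. Over all tested genes the share was 37.6%. Eif4e, the cap-binding protein itself, had 24.5 and 27.6 FPKM in mutants, against 27.1, 27.5 and 24.8 FPKM in controls (log2 change -0.02, 95% interval -0.28 to 0.24). Eif4g2, a scaffold that does not bind eIF4E, had 164 FPKM in both mutants and 185, 190 and 192 FPKM in controls (log2 change -0.20, adjusted p = 0.341). Of the eIF4E binders, Eif4ebp1, an mTOR substrate, had 55.2 and 51.0 FPKM in mutants, against 36.2, 48.2 and 48.2 FPKM in controls (log2 change 0.27, SE 0.15, adjusted p = 0.382). Eif4ebp2 had 120 and 122 FPKM in mutants and 115, 130 and 127 FPKM in controls. Eif4ebp3 rested on few reads, 11 and 8 in mutants against 25, 15 and 17 in controls.

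Eif5a helps ribosomes through difficult peptide stretches and had 291 and 289 FPKM in mutants and 236, 307 and 248 FPKM in controls. Eif5a2, its rarer relative, had 3.83 and 4.18 FPKM in mutants, against 4.72, 5.10 and 5.07 FPKM in controls (log2 change -0.25, adjusted p = 0.307). Eif6, which keeps the ribosomal subunits apart, had a log2 change of 0.01 with a 95% interval of -0.24 to 0.26.

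The eEF1 group had 5 positive changes among 6 genes and a median of 0.15, which quantile normalization turned to -0.02. Eef1e1, a scaffold protein of the aminoacyl-tRNA synthetase complex, had 31.9 and 30.2 FPKM in mutants, against 26.0, 25.0 and 24.4 FPKM in controls (log2 change 0.30, SE 0.10, adjusted p = 0.166). Eef1b2, the exchange factor for eEF1A, had 284 and 334 FPKM in mutants, against 253, 257 and 215 FPKM in controls (log2 change 0.35, SE 0.13, adjusted p = 0.215). Neither gene's groups overlapped. Eef1g had 464 and 501 FPKM in mutants and 398, 460 and 448 FPKM in controls, and Eef1a1 had 4637 and 5117 FPKM in mutants, against 5102, 4166 and 3980 FPKM in controls. Eef1a1 thus did not separate the groups (log2 change 0.15, SE 0.19, adjusted p = 0.743). After quantile normalization the log2 changes were -0.11 for Eef1a1 and -0.08 for Eef1g. Processed copies of Eef1a1 exist in the genome, and how reads were divided among them is not given in the labels.

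Eef1a2 is the eEF1A gene of muscle, heart and neurons in adult mammals. It had 3.87 and 7.42 FPKM in mutants, against 4.57, 4.68 and 13.6 FPKM in controls (log2 change -0.27, SE 0.43, adjusted p = 0.804). Control replicate 3 had the highest value and mutant replicate 2 the next. Single libraries set the sign of this change, which was 0.19 without control replicate 3, 0.12 without mutant replicate 1 and -0.67 without mutant replicate 2. With the Y-linked level as a covariate it was 0.60. The replicate block gave the same 0.19 as leaving out control replicate 3, since that library has no same-numbered mutant. Summed levels of 7 heart muscle markers were 139 and 384 FPKM in mutants, against 212, 195 and 872 FPKM in controls, with the same 2 libraries highest. The skeletal muscle markers ordered the libraries otherwise, with 12.4 and 37.4 FPKM in mutants and 234, 173 and 206 FPKM in controls. Control replicate 1 was highest for them and had 4.57 FPKM of Eef1a2. Summed levels of 8 neuron markers were 37.3 and 28.8 FPKM in mutants and 65.4, 50.9 and 72.4 FPKM in controls. Of the 7 heart markers, 0 were called by limma and 0 had an unadjusted p under 0.05. Of the 8 neuron markers, 2 were called lower in mutants and 7 had an unadjusted p under 0.05, with a median log2 change of -0.76. The part of heart, skeletal muscle or nerve tissue in the Eef1a2 values was not tested. A 60-base stretch around the longest identical run, at bases 285 to 344 of each coding sequence, sets it beside Eef1a1, with the differing bases in capitals. Eef1a1 lies at chr9:78478449-78489151 and Eef1a2 at chr2:181147653-181157014, both on the minus strand.
Eef1a1: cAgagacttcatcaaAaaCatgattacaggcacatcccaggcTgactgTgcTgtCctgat
Eef1a2: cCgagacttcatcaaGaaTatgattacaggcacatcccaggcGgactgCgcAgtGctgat

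Eef2 had 1008 and 923 FPKM in mutants and 956, 900 and 926 FPKM in controls (log2 change 0.06, SE 0.13, adjusted p = 0.869). Its log2 change was -0.24 after quantile normalization. Eef2k, the kinase that inhibits it, had 7.32 and 6.88 FPKM in mutants, against 8.70, 7.19 and 8.12 FPKM in controls (log2 change -0.15, adjusted p = 0.573). No gene of this group separated the groups of libraries.

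Around the factors, 85 genes of 7 related lists were tested in the same fit. 1 was called higher in mutants and 0 lower, and 6 had an unadjusted p under 0.05. These are 1.18% and 7.06% of the 85, against 2.36% and 18.9% of all tested genes. Their median log2 change was -0.02. The called gene was Sesn2, a stress-induced inhibitor of mTORC1, with 11.8 and 11.01 FPKM in mutants, against 4.73, 4.62 and 3.996 FPKM in controls (log2 change 1.19, SE 0.12, adjusted p = 0.00691). Its call was lost when a mutant library was left out, with adjusted p-values of 0.0883 without replicate 1 and 0.0817 without replicate 2. The other 15 genes of the mTORC1 and MNK list were not called, among them Mknk1, which phosphorylates eIF4E, with a log2 change of -0.31 (adjusted p = 0.253).

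No gene was called among 9 poly(A)-binding proteins and partners, whose median log2 change was -0.19, with Larp4 at -0.29 and Larp4b at -0.28. The 11 initiation cofactors outside the Eif symbols had 0 calls as well. Ddx3x, an X-linked helicase that acts on structured leaders, had 67.2 and 75.0 FPKM in mutants, against 115, 80.5 and 109 FPKM in controls (log2 change -0.49, adjusted p = 0.17). The groups differed in Xist, so for this X-linked gene sex and genotype cannot be told apart. Mcts2 had a change of 0.30. The 6 termination and recycling genes had a median of 0.02, with Gspt1 at 0.06 and Etf1 at 0.04. The 9 genes of hypusine and diphthamide synthesis had a median of -0.01, with Dph5 at 0.19 and Dph2 at 0.11. Among 12 genes of the eIF2 alpha phosphatase and stress response, Ppp1ca had a change of 0.13 and Ppp1r15a, the stress-induced phosphatase subunit, one of -0.18. The 22 cytosolic aminoacyl-tRNA synthetases and scaffold genes had a median of -0.04, with Farsb at 0.40 (adjusted p = 0.268) and Rars at 0.23 (adjusted p = 0.45).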

How the data were processed

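RNA from E13.5 airway tissue was sequenced with a SMARTER mRNA-seq kit, per the labels' protocols, as 2 mutant and 3 control libraries. The authors deposited 1 table of FPKM values for 19699 genes. Builds GRCm38 and mm10 are named in the submitters' processing notes, and no aligner or counter is named in the labels or file. Changes were tested on log2(FPKM + 1) with limma 3.58.1 in R 4.3.3 (trend, two-sided), over 12838 genes with at least 1 FPKM in 2 libraries, with Benjamini-Hochberg adjustment over all of them and a threshold of 0.05. Reads were recovered from the FPKM steps, within a relative tolerance of 1e-11. At GENCODE M21 exon lengths 73.9% of 18893 genes, and 43 members, gave whole reads, and the shortest length giving whole reads was used for the others. Voom on these reads was an alternative. Single values were compared by exact permutation of libraries, with 10 splits. The test was checked on simulated data.

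The members and lists were chosen with earlier results of these data known. Genes named by rule were Prmt5, any called member, the 8 smallest p-values, the 6 highest levels, the extremes of each role group, fixed regulators and paralogs, and the called or 2 lowest-p genes of each list. Genes named beyond it, such as Eif3a, Eif3f, Eif5b and Eif4g2, were chosen after their values were seen. Shared replicate numbers come from sample titles alone, and the libraries were not treated as pairs. Same-numbered libraries correlated at -0.07 and 0.02 in their deviations from group means. With 2 mutants those deviations mirror each other, so these values cannot show whether libraries are paired. Among the members, 14 share exon bases with another listed gene.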

Additional observations from a re-analysis of the deposited data

How the results depend on the processing

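Under all 13 alternatives 0 translation factor genes were called, and their smallest adjusted p lay between 0.0795 with voom and 0.439 without mutant replicate 2. Their median log2 change ran from -0.06 with summed FPKM equalised without Gm23935 to 0.09 with median ratio scaling, and 45 of 62 changes were positive after median ratio scaling, 33 in the main analysis and 23 after the equalising. The sign of 12 members differed after median ratio scaling, of 10 after quantile normalization and of 10 after the equalising. It differed for 13 with the Y-linked level as a covariate and for 13 without mutant replicate 2. Over all genes the number called was 69 with no filter on low values, 181 with the Y-linked level as a covariate and 603 with voom, against 303 in the main analysis, and 4 to 284 when 1 library was left out (4 without mutant replicate 1, 11 without mutant replicate 2). The cause was not tested. The split of higher against lower calls was 127 and 176 in the main analysis, 151 and 140 after median ratio scaling and 133 and 115 after quantile normalization. Members at an unadjusted p under 0.05 numbered 8 in the main analysis and 2 with the Y-linked level as a covariate. They numbered 1 with replicate number as a block and 11 with no filter on low values. With replicate number as a block, 259 genes and 0 members were called. That block sets control replicate 3 apart, so its log2 changes equal those without that library. Of the values of 33 named members under the alternatives, 411 stayed within 1 SE of the main value and 18 moved further. The absence of calls does not show that the members did not differ: the 95% intervals of 13 reach past 1.5-fold.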
